A study of Mus musculus with 12 samples.

Results

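The genes described here are 10 secreted signals that fibroblasts are known to make, the chemokines Ccl2, Ccl5, Ccl7, Ccl24, Cxcl1, Cxcl5, Cxcl10 and Cxcl12 and the cytokines Il6 and Il33. Each was found by the RefSeq accession of its array probe, and all 10 had a named probe among the 17178 genes with one. They had 13 named probes in all, 2 each for Ccl7, Ccl24 and Cxcl12. Of the 10 genes, 9 passed the filter on dim probes and are among the 12300 genes tested, while Cxcl10 did not pass it. The set was selected on a measured value: Ccl5 and Il33 are in it because they were higher in Six4 hairpin cells with MyoD than in control hairpin cells with MyoD. That contrast is therefore given as a description for all members, with no test. The 2 MyoD responses and the difference between them share arrays with it, and for Ccl5 and Il33 they are described in the same way.

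Gene expression was measured on 12 single-colour arrays of C3H/10T1/2, fibroblasts of mouse embryo origin in which MyoD, the master factor of skeletal muscle, can switch on the muscle programme. Cells that stably carried shSix4, a hairpin against the homeobox factor Six4, were set against cells that carried the control hairpin shLuc. Both received a pBABE retrovirus, either empty or carrying tagged MyoD, and after 24 h spent a further 24 h in differentiation medium (2% horse serum). The 4 groups of 3 arrays are thus shLuc with empty vector, shLuc with MyoD, shSix4 with empty vector and shSix4 with MyoD. All 4 groups share the viral infection and the serum change. Each hairpin is represented by 1 line, so hairpin and line cannot be told apart. Nothing in the labels states that the replicates were separate cultures, so the p-values rest on a spread that may be technical.

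Chemokines are small secreted proteins that draw leukocytes along a gradient through receptors coupled to G proteins. CC chemokines such as Ccl2, Ccl5, Ccl7 and Ccl24 attract monocytes, T cells or eosinophils, while CXC chemokines that carry an ELR motif, such as Cxcl1 and Cxcl5, attract neutrophils. Cxcl12 is made constitutively by stromal cells and acts through Cxcr4, which myogenic cells carry. Il6 acts through Il6ra and the shared subunit Il6st, and Il33 is a nuclear cytokine of the IL-1 family that stromal cells release on damage and that signals through Il1rl1. Resident fibroblasts and muscle progenitors are known sources of several of these signals in injured muscle. Many of the genes are targets of NF-kB or of interferon signalling.

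Of 41174 probes, 22318 to 27448 lay well above background per array, and no spot was saturated. Levels are log2 processed signal minus the array's 75th percentile, so a level of 0 lies at that percentile, and levels of different probes are not compared with each other. Each of the 3 slides held 1 array of every group and 1 replicate number, and each group sat at the same position on every slide, so position and group cannot be told apart. Slide 1 was scanned on another day than slides 2 and 3. Each slide showed less Six4 with its hairpin, with MyoD (-3.03, -2.93 and -1.54 against -1.45, -1.69 and -0.85) and with empty vector (-4.10, -3.0 and -2.82 against -2.62, -2.90 and -1.64), but the difference did not pass the threshold (limma adjusted p = 0.558 with MyoD and 0.999 with empty vector). Blocking on the slide took the MyoD difference past it (adjusted p = 0.0424). Myod1 was at 0.071, -0.23 and 1.23 on the shLuc MyoD arrays and at -2.17, -0.86 and -0.23 on the shSix4 MyoD arrays, and the part of this difference in any result was not tested. With empty vector it was at -4.77 and -2.57 in shLuc and at -4.37 and -2.01 in shSix4 cells, with replicate 3 missing. Its rise with MyoD passed the threshold in shLuc cells (limma adjusted p = 0.0315). In shSix4 cells the groups overlapped and the rise did not pass (2.10 ± 0.90, adjusted p = 0.482). Outlier marks fell on 2 Myod1 arrays of each group. Of the 12 skeletal muscle markers 11 rose with MyoD in each line. Among them Myog, Ckm, Myh3, Des and Chrna1 passed the filter on dim probes only through MyoD arrays. With MyoD, however, all 12 had lower levels in shSix4 than in shLuc cells (median difference -1.45, from -2.40 to -0.83), of which 1, Myh3, was called and 6 in the blocked fit. Their summed linear signal, as multiples of the array's 75th percentile, was 219 to 385 on the shSix4 MyoD arrays and 611 to 933 on the shLuc MyoD arrays. This gap moves with the contrast that chose Ccl5 and Il33, and its part in any result was not tested. Of 22 leukocyte markers on the array, 8 were above background on no array, among them the pan-leukocyte gene Ptprc. Their summed signal on the same scale ran from 1.16 to 1.44 on the shLuc empty-vector arrays, 0.869 to 1.05 in shLuc with MyoD, 1.52 to 1.82 in shSix4 with empty vector and 1.21 to 1.57 in shSix4 with MyoD. The 13 fibroblast markers, among them Col1a1 and Vim, were all above background in at least 1 group, and none of the 13 was called in any comparison; with the slide as a block 6 were lower and Fap was higher with MyoD in shLuc cells, and 1 was lower in shSix4 cells. The blocked fit also put Lum lower in shSix4 than in shLuc with empty vector (-1.99, adjusted p = 0.0224) and with MyoD (-1.34, adjusted p = 0.0316), and with MyoD Fap lower (-1.88, adjusted p = 0.0182) and 1 marker higher. Fap passed the filter only through the shLuc MyoD arrays. Over all genes that fit called 25.6% with MyoD in shLuc and 8.30% in shSix4 cells.

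**Figure D1:**
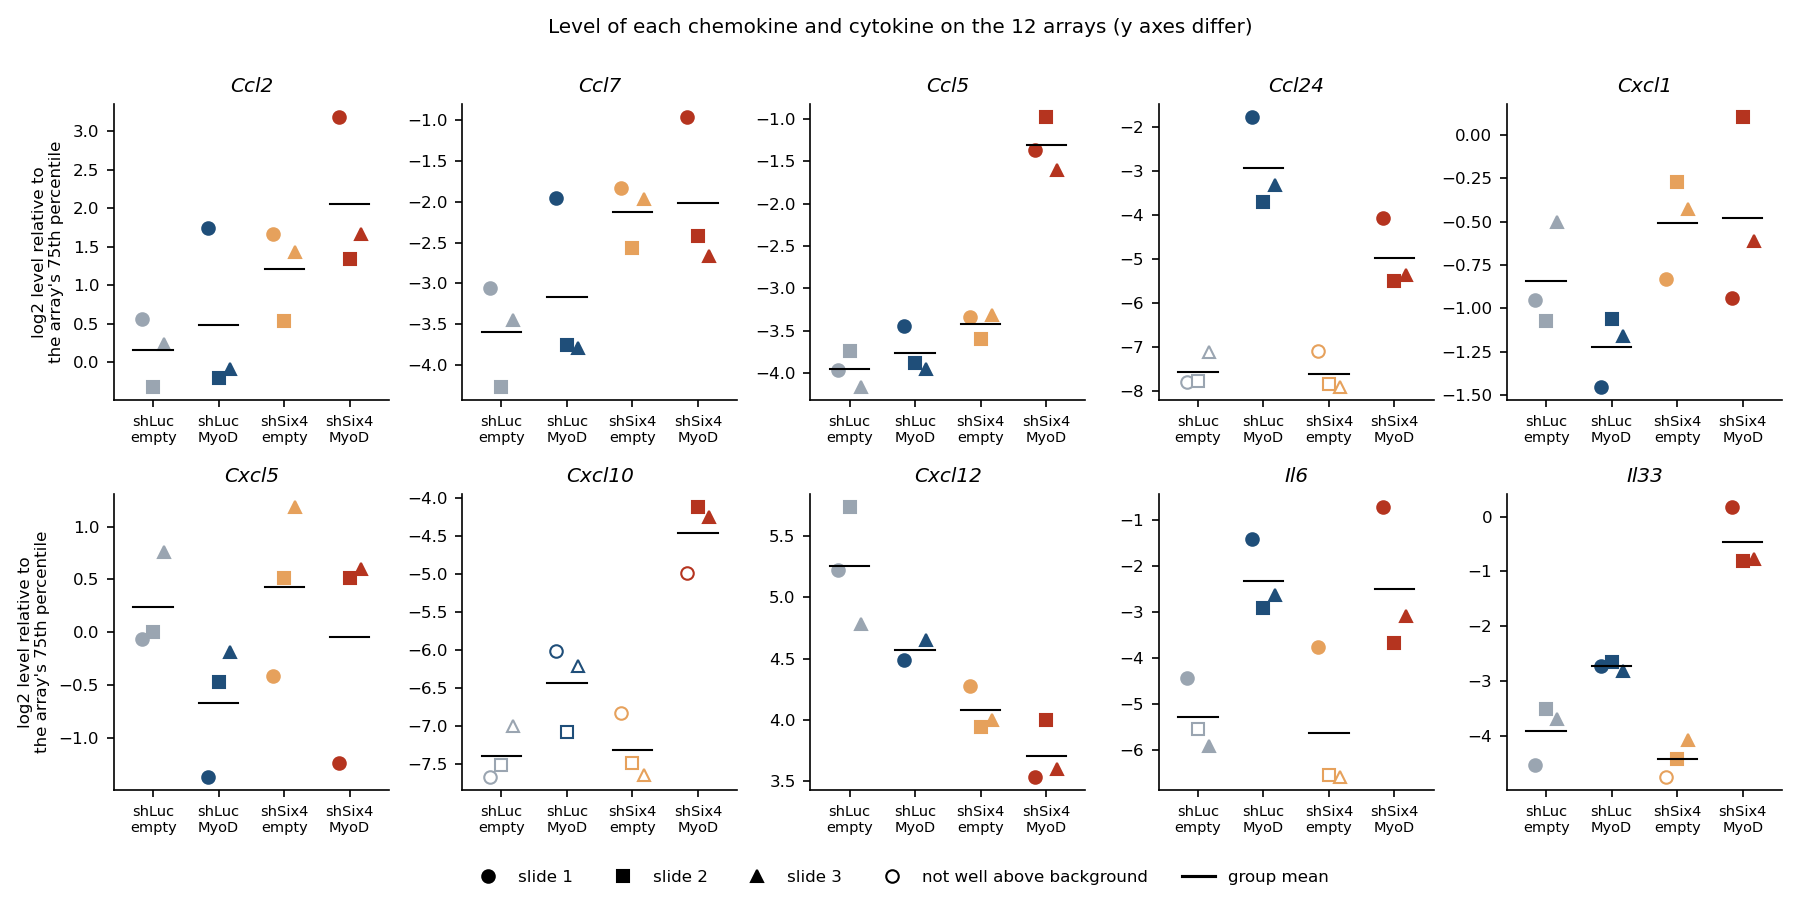
Log2 level (relative to the array's 75th percentile) of the 10 genes on each of the 12 arrays, with slides marked by shape, group means as lines and open marks for arrays on which the probe was not well above background. The Ccl5 and Il33 panels show the 3 shSix4 arrays with MyoD above all others, and the Cxcl12 panel shows the shSix4 arrays below the shLuc arrays of both vectors.

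Ccl5, the chemokine also called RANTES that draws T cells and monocytes, was high in a single group. Its levels were -1.37, -0.98 and -1.60 on the shSix4 MyoD arrays. They were -3.44, -3.88 and -3.95 on the shLuc MyoD arrays. With empty vector they were -3.34, -3.60 and -3.32 in shSix4 cells and -3.96, -3.74 and -4.16 in shLuc cells. All 12 arrays were above background, and the lowest shSix4 array with MyoD lay above the highest of the other 9. By mean the order ran from shSix4 with MyoD (-1.31 ± 0.31, SD, n = 3) through shSix4 with empty vector (-3.42 ± 0.16) and shLuc with MyoD (-3.76 ± 0.28) to shLuc with empty vector (-3.95 ± 0.21). The groups shSix4 with empty vector and shLuc with MyoD overlapped, as did the 2 shLuc groups.

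As a description, Ccl5 was 2.44 ± 0.22 (SE) higher on the log2 scale in shSix4 than on the shLuc MyoD arrays, a 5.44-fold difference, with 2.07, 2.90 and 2.36 on the 3 slides. The MyoD response of Ccl5 was 2.10 ± 0.22 in shSix4 cells and 0.20 ± 0.22 in shLuc cells. The difference between these responses was 1.91 ± 0.31 and lay between 1.45 and 2.76 on the slides. With normexp background correction in place of the scanner's own, the hairpin difference with MyoD was 0.99 ± 0.69 and the MyoD response in shSix4 cells 1.25 ± 0.69. The comparison on arrays that played no part in the choice is the one with empty vector. There the groups did not overlap and Ccl5 was 0.54 ± 0.22 higher in shSix4 cells on 3 of 3 slides, and this did not pass the threshold (limma adjusted p = 0.999, or 0.230 in the blocked fit). Normexp correction turned its sign, at -0.35 ± 0.69.

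Il33, the nuclear alarmin of the IL-1 family, was also highest on the shSix4 MyoD arrays. Its 3 levels there were 0.17, -0.81 and -0.77. In shLuc cells with MyoD they were -2.73, -2.65 and -2.82. With empty vector they were -4.54, -3.51 and -3.70 for shLuc and -4.75, -4.43 and -4.08 for shSix4, where the probe was above background on 2 of 3 arrays. The 2 groups with MyoD lay above both groups with empty vector without overlap, and the groups with empty vector overlapped each other. Group means were -0.47 ± 0.55 (SD, n = 3) in shSix4 with MyoD, -2.73 ± 0.088 in shLuc with MyoD, -3.92 ± 0.55 in shLuc with empty vector and -4.42 ± 0.33 in shSix4 with empty vector.

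As a description, Il33 was 2.26 ± 0.33 (SE) higher on the log2 scale in shSix4 than on the shLuc MyoD arrays, or 4.79-fold, with 2.89, 1.83 and 2.05 on the slides. The MyoD response of Il33 was 3.95 ± 0.33 in shSix4 cells and 1.18 ± 0.33 in shLuc cells, and the difference between them was 2.76 ± 0.46. Normexp background correction gave 1.23 ± 0.71 for the hairpin difference with MyoD and 2.24 ± 0.71 for the MyoD response in shSix4 cells. With empty vector the sign was the other way on every slide: the shSix4 level minus the shLuc level of Il33 was -0.20, -0.92 and -0.38. That difference of -0.50 ± 0.33 did not pass the threshold (limma adjusted p = 0.999). Across the 12 arrays Ccl5 and Il33 correlated at r = 0.83 and their deviations from the group means at -0.0015. The first value includes the shSix4 MyoD arrays on which both genes were chosen. Their differences elsewhere were, between hairpins with empty vector 0.54 for Ccl5 and -0.50 for Il33, and with MyoD in the shLuc line 0.20 and 1.18. These correlations describe arrays that share slides and carry no test.

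**Figure D2:**
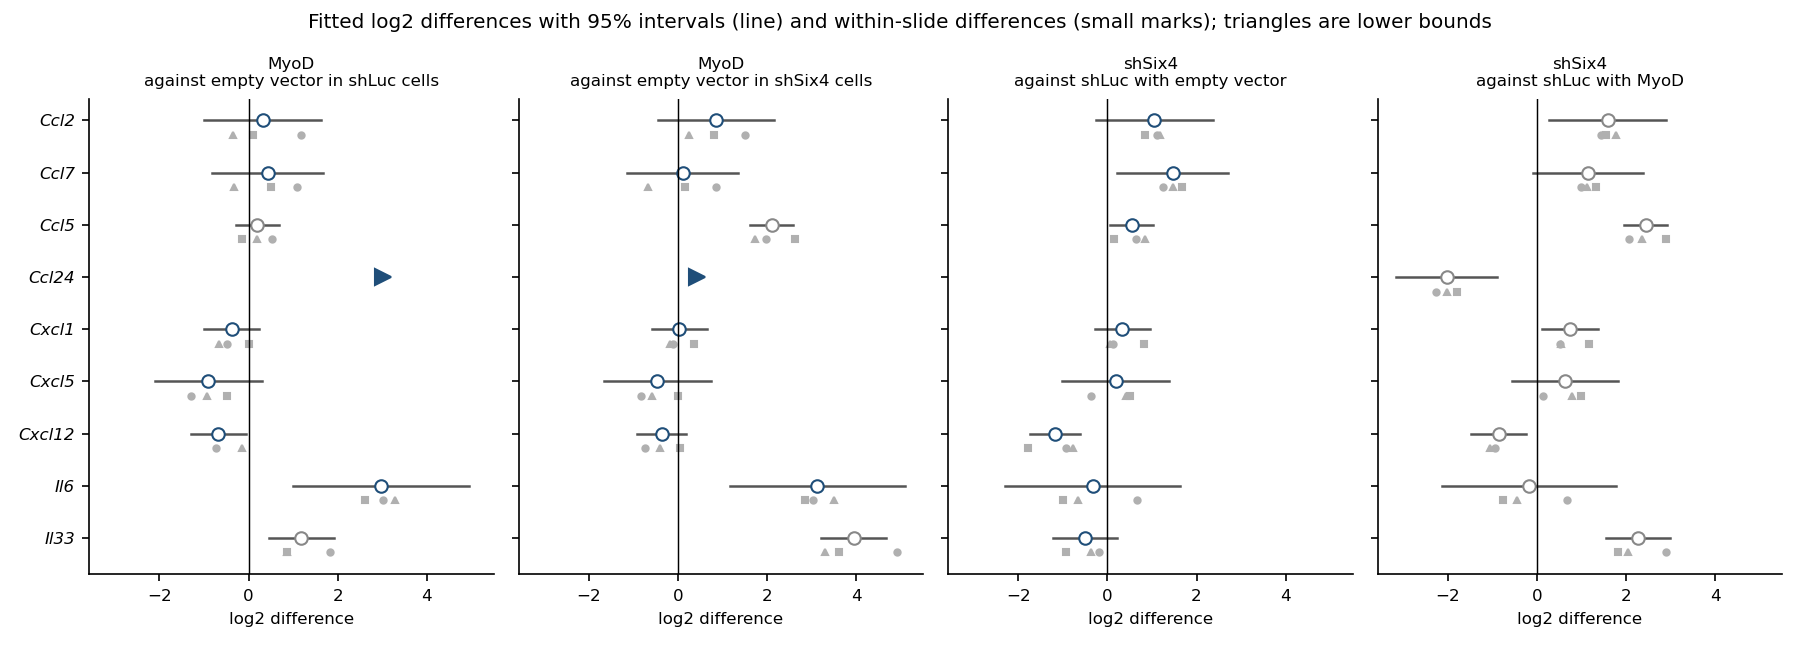
Log2 differences of the 9 tested genes in the 4 comparisons between groups, with 95% intervals as lines and the differences on each slide as small marks (circle, square and triangle for slides 1, 2 and 3). Filled blue points passed the threshold, open blue points did not, and grey points are descriptions without a test. Triangles are lower bounds, drawn where a group was below background on all arrays: Ccl24 lies at or above 3.02 with MyoD for shLuc and 0.42 for shSix4, and is not drawn with empty vector.

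The RefSeq table of promoters (GRCm38.p6) held 6 windows for 5 of the members, of which 4 are printed because they belong to genes whose shSix4 MyoD arrays lay above all 9 others (Il33, Cxcl10) or responding to MyoD in both lines with the slide as a block (Il6). Each is the 250 bases before the annotated start, 5′ to 3′ on the gene's strand, with matches to any of the 6 searched motifs in capitals. The first Il33 start has chr19:29924863-29925112, plus strand, and the second, chr19:29945540-29945789, plus strand. The Cxcl10 window is chr5:92348890-92349139, minus strand, and the Il6 window is chr5:30012864-30013113, plus strand.
Il33, first start: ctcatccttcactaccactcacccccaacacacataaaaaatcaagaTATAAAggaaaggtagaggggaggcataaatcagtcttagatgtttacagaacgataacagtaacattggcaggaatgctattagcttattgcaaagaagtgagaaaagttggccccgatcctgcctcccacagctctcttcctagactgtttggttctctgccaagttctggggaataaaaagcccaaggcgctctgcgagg
Il33, second start: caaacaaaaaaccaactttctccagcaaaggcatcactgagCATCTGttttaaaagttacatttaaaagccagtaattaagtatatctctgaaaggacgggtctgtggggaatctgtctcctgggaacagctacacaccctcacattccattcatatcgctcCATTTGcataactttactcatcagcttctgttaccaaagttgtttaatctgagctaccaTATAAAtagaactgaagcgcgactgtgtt
Cxcl10: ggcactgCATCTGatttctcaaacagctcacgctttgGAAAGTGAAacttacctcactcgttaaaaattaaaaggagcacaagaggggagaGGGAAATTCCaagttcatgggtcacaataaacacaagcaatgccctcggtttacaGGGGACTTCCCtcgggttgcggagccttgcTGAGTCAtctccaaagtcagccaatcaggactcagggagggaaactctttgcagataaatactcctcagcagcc
Il6: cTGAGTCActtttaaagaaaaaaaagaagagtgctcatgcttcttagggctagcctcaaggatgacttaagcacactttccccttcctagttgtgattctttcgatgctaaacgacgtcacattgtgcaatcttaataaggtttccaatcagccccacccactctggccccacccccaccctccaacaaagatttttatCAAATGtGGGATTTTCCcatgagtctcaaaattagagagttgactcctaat
The motifs were searched on both strands and were the E-box (CANNTG), which MyoD and its relatives bind, the MEF3 site (TCAGGTT), which Six4 and its relatives bind, the NF-kB consensus, the ISRE (GAAANNGAA), which interferon regulatory factors bind, the AP-1 site (TGANTCA) and the TATA box (TATAAA). In the first Il33 window the capitals are a TATA box, and in the second they are 2 E-boxes (CATCTG and CATTTG) and a TATA box 29 to 24 bases before the start. In the Cxcl10 window they are an E-box, an ISRE (GAAAGTGAA), NF-kB matches at 2 places (the one nearer the start is made of matches that overlap each other) and an AP-1 site. In the Il6 window they are an AP-1 site, an E-box (CAAATG) and an NF-kB match (GGGATTTTCC) 44 to 35 bases before the start.

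The Cxcl1 window, not printed, held an E-box and overlapping NF-kB matches, and the Cxcl12 window held none of the 6 motifs. Of 32851 windows of the same length, 66.2% held an E-box, 3.49% a MEF3 match, 7.25% an NF-kB match, 7.13% an ISRE match, 6.75% an AP-1 match and 12.4% a TATA box. Among the 6 windows of the members, 4 held an E-box, 0 a MEF3 match, 3 an NF-kB match, 1 an ISRE match, 2 an AP-1 match and 2 a TATA box. A match describes the letters of the window and is no evidence that a factor binds there.

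Among the CC chemokines, Ccl24 (eotaxin-2, which attracts eosinophils) rose with MyoD in both lines on the tested probe. It was well above background on none of the 6 arrays with empty vector, where its signals lay between -7.89 and -7.08. With MyoD it was above background on all 6, at -1.79, -3.70 and -3.32 for shLuc, then -4.06, -5.49 and -5.35 for shSix4. It passed the filter on dim probes only through its MyoD arrays, so a gene admitted in this way had to differ. It was at least 8.09-fold higher with MyoD in shLuc cells (limma adjusted p = 0.000176) and at least 1.33-fold higher in shSix4 cells (adjusted p = 0.0155). Here a bound sets the mean of the bright group against, per array, the dimmest probe that was still well above background. The adjusted p beside any bound in this report comes from the limma fit to the signals as read, and the bound itself was not tested. The shSix4 call was lost when shSix4 replicate 1 with MyoD (adjusted p = 0.0592) or shSix4 replicate 2 or 3 with empty vector (0.0721 and 0.0722) was left out. With normexp correction the difference was 0.93 ± 0.81 in the shLuc line, 0.093 ± 0.81 in the shSix4 line, and neither was called.

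Ccl24 went against Ccl5 and Il33 between the hairpins. As a description, with MyoD its difference was -2.03 ± 0.51 on the log2 scale (4.08-fold lower in shSix4 cells), with -2.26, -1.79 and -2.03 on the slides and no overlap of the groups. The second Ccl24 probe was outside the test. It was above background on 2 arrays, both of the shLuc MyoD group (-4.13 and -5.45, with -5.90 on the third), while its signals on the shSix4 MyoD arrays (-6.74, -7.51 and -6.64) were not above background. In shSix4 cells the second probe had means of -6.96 with MyoD and -6.90 with empty vector, so it showed no rise in that line. Its means in shLuc cells were -5.16 and -7.77. No difference of the Ccl24 MyoD responses is given, since neither probe was measured above background with empty vector.

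Ccl2, the main attractant of monocytes, and Ccl7, its neighbour in function, had the same pattern between arrays. Ccl2 stood at 0.56, -0.32 and 0.24 on the shLuc empty-vector arrays and at 1.74, -0.21 and -0.095 on the shLuc MyoD arrays. In shSix4 cells it stood at 1.67, 0.53 and 1.43 with empty vector and at 3.18, 1.34 and 1.67 with MyoD. Slide 1 had the highest level of every group, and the hairpin groups overlapped with either vector. On the same slide, however, Ccl2 was higher in shSix4 cells each time, by 1.11, 0.84 and 1.19 with empty vector. The fit gave 1.05 ± 0.59 for that comparison, which did not pass the threshold (limma adjusted p = 0.999, or 0.153 in the blocked fit). With MyoD the differences on the slides were 1.44, 1.55 and 1.77 (fit 1.59 ± 0.59, a description).

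Ccl7 stood at -3.06, -4.26 and -3.45 on the shLuc empty-vector arrays and at -1.83, -2.57 and -1.97 on the shSix4 empty-vector arrays, without overlap. With MyoD it stood at -1.96, -3.75 and -3.79 in shLuc cells and at -0.97, -2.42 and -2.66 in shSix4 cells, where slide 1 was again the highest and the groups overlapped. The difference between hairpins with empty vector was 1.47 ± 0.56, higher on 3 of 3 slides, and did not pass the threshold (limma adjusted p = 0.999). It was 0.0741 with the slide as a block, and 0.0486 (difference 1.58) when slide 1 was left out, while normexp correction gave 0.096 ± 0.68 (adjusted p = 0.967). With MyoD it was 1.15 ± 0.56 as a description. The second Ccl7 probe was also higher in shSix4 cells on each slide with either vector, with group means of -3.23 against -4.54 with empty vector and -3.02 against -3.92 with MyoD. Across the 12 arrays Ccl2 and Ccl7 correlated at r = 0.95, and at 0.97 after group means were removed, where the arrays share slides. MyoD gave no call for either gene in either line (adjusted p from 0.754 to 0.998).

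**Figure D3:**
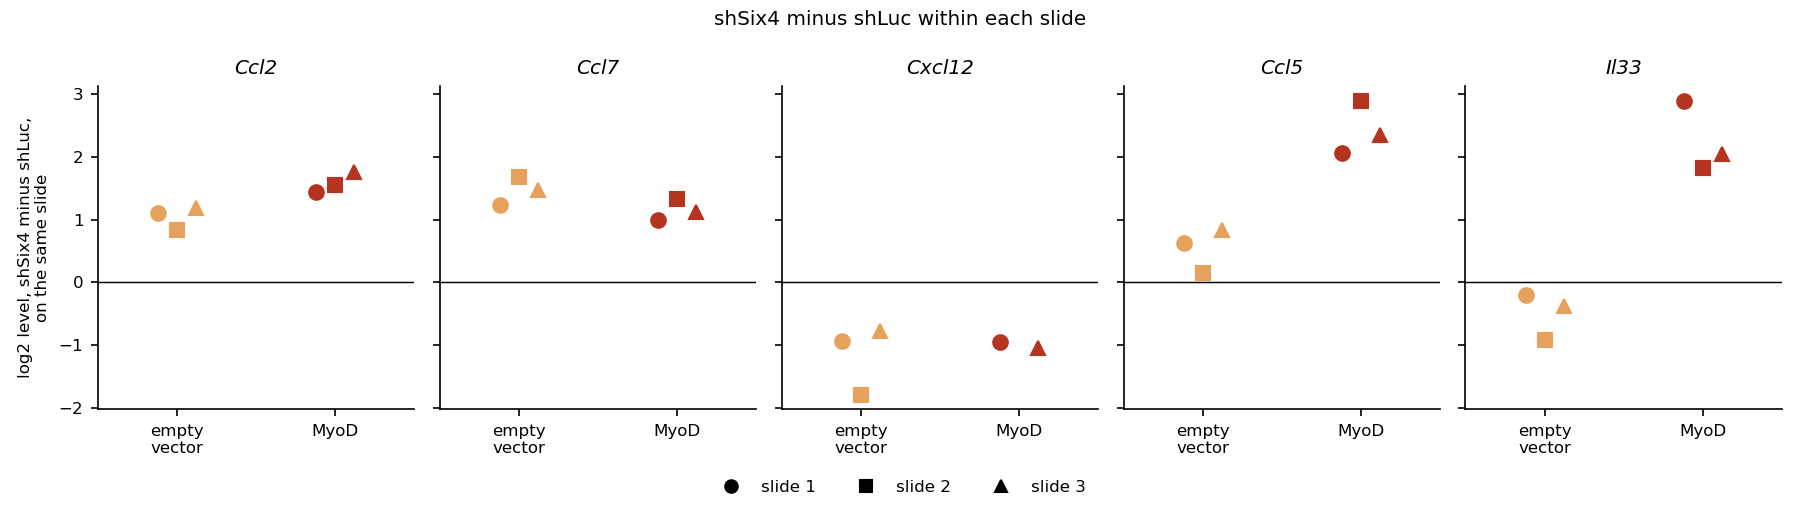
Difference in log2 level between shSix4 and shLuc cells on the same slide, with empty vector (orange) and with MyoD (red), 1 mark per slide. Ccl2 and Ccl7 are above 0 and Cxcl12 below 0 on every slide shown with either vector, while Il33 is below 0 with empty vector and above 0 with MyoD. The Cxcl12 value of slide 2 with MyoD is missing because that spot was marked as an outlier.

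Cxcl12, the stromal chemokine that holds Cxcr4-bearing cells in place, ran the other way. Its levels were 5.22, 5.73 and 4.78 on the shLuc empty-vector arrays and 4.28, 3.94 and 4.0 on the shSix4 empty-vector arrays. With MyoD they were 4.49 and 4.65 in shLuc cells, where the spot of replicate 2 carried an outlier mark and was dropped, and 3.54, 4.0 and 3.60 in shSix4 cells. The shSix4 arrays lay below the shLuc arrays of the same vector without overlap. With empty vector the difference was -1.17 ± 0.25, or 2.25-fold lower, on 3 of 3 slides, and did not pass the threshold (limma adjusted p = 0.308, or 0.0592 in the blocked fit). Normexp correction gave -0.55 ± 0.34. With MyoD it was -0.86 ± 0.28 as a description. The second Cxcl12 probe, which stands for another RefSeq transcript, had means of 1.83 against 2.68 with empty vector and 1.28 against 2.19 with MyoD, so it was lower in shSix4 cells too, on each slide. With MyoD against empty vector Cxcl12 differed by -0.68 ± 0.28 in shLuc cells (adjusted p = 0.224) and -0.36 ± 0.25 in shSix4 cells (adjusted p = 0.821). In these bulk samples fewer cells that make a signal and less RNA per cell cannot be told apart.

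The neutrophil chemokines Cxcl1 and Cxcl5 were above background on all 12 arrays and were called in no comparison in the fit without the block. Cxcl1 ranged from -1.45 to 0.10. Its group means were -0.84 ± 0.31 (SD, n = 3) in shLuc with empty vector, -1.22 ± 0.20 in shLuc with MyoD, -0.51 ± 0.29 in shSix4 with empty vector and -0.48 ± 0.53 in shSix4 with MyoD. With MyoD the hairpin groups did not overlap (0.74 ± 0.28 higher in shSix4 cells, a description). The MyoD response of Cxcl1 was -0.38 ± 0.28 in shLuc cells (limma adjusted p = 0.520, 95% interval from -1.0 to 0.24) and 0.026 ± 0.28 in shSix4 cells (adjusted p = 0.998, from -0.59 to 0.65).

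Cxcl5 stood at -0.057, 0.0071 and 0.76 on the shLuc empty-vector arrays and at -1.36, -0.47 and -0.18 on the shLuc MyoD arrays, without overlap and lower with MyoD on 3 of 3 slides. The difference was -0.91 ± 0.55 (limma adjusted p = 0.421) and passed the threshold once slides were blocked (adjusted p = 0.0291). In shSix4 cells the levels were -0.41, 0.51 and 1.18 with empty vector and -1.23, 0.51 and 0.60 with MyoD, with overlap (-0.47 ± 0.55, adjusted p = 0.961). Slide 1 had the lowest Cxcl5 level in each group. After group means were removed, Cxcl5 correlated at 0.75 with Cxcl1, at -0.91 with Il6 and at -0.70 with Ccl2 over the 12 arrays. These deviations move with the slide, and its part in them was not tested.

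Cxcl10, an interferon-induced chemokine for T cells and the CXC member that left the test at the filter, was well above background on 2 arrays only, both of the shSix4 MyoD group. Its signals in that group were -4.98, -4.12 and -4.24, of which the latter 2 were above background. In shLuc cells with MyoD they were -6.01, -7.08 and -6.21. With empty vector they lay between -7.66 and -6.82, and every array outside shSix4 with MyoD was below background. No fold and no test are given for it, since no group had all 3 arrays above background.

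Il6, the cytokine that also acts as a myokine, was higher with MyoD on every slide in both lines. Its levels were -1.41, -2.92 and -2.63 on the shLuc MyoD arrays against -4.43, -5.54 and -5.92 with empty vector, where 2 of 3 arrays were above background. In shSix4 cells they were -0.73, -3.68 and -3.08 with MyoD against -3.76, -6.54 and -6.58 with empty vector, where 1 of 3 arrays was above background. Each pair of groups was separate. Il6 passed the filter on dim probes only through its MyoD arrays, so its entry into the test leaned towards a rise. The differences within slides were close to each other, at 3.02, 2.62 and 3.29 for shLuc and 3.03, 2.86 and 3.50 for shSix4, while slide 1 lay above the other slides in every group. The fit over all arrays gave 2.98 ± 0.89 (limma adjusted p = 0.0809) in shLuc and 3.13 ± 0.89 (adjusted p = 0.123) in shSix4 cells. Both passed the threshold in the blocked fit (adjusted p = 0.000365 and 0.000425). With normexp correction they were 0.91 ± 0.82 and 0.89 ± 0.82 and were not called. Between the hairpins Il6 differed by -0.33 ± 0.89 with empty vector (adjusted p = 0.999, 95% interval from -2.29 to 1.63). The Il6 probe is spotted more than once, and outlier marks left spots out of its mean on 2 arrays of the shLuc empty-vector group and on 1 array of each other group.

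Counted over the members, MyoD in shLuc cells called 1 of 9 (Ccl24), against 6.28% of all genes tested, and 5 of 9 had groups that did not overlap, against 26.2%. In the blocked fit, where 25.6% of all genes were called, the count was 4, with Il6 and Il33 added upwards and Cxcl5 downwards. Of these, Ccl24 and Il6 had entered the test through their MyoD arrays alone. Il33 was chosen on a contrast that uses the shLuc MyoD arrays, so its call is a description. The 5 members without overlap were Ccl24, Il6, Il33, Cxcl5 and Cxcl12. In shSix4 cells MyoD called 3 of 9 (Ccl5, Il33 and Ccl24), against 2.89%, and 4 did not overlap (the same 3 and Il6), against 14.6%. Ccl5 and Il33 were chosen on arrays of this comparison, and of the 7 other members 1 was called, Ccl24, which had entered the test through its MyoD arrays alone. The blocked fit called 4 of 9, against 8.30%, with Il6 added, which had also entered through its MyoD arrays alone. Every member called or without overlap in shSix4 cells was thus either chosen on these arrays or admitted through MyoD arrays alone. With empty vector no member was called between the hairpins by limma, against 0.0569% of all genes. At an unadjusted p under 0.05 there were 3, against 4.45% of all genes, and with the slide as a block 0 were called, against 0.642%. In that comparison 3 of 9 did not overlap (Ccl5, Ccl7 and Cxcl12), against 8.37%. With MyoD the contrast between the hairpins carries no test for the members, and its counts are descriptions. There 2 of 9 members passed the threshold (background 0.228%), Ccl5 and Il33, which restates their choice, and 0 of the 7 others did. The blocked fit called 4 (background 4.33%), with Ccl2 added upwards and Ccl24 downwards. In that contrast 5 members did not overlap (background 12.1%). The chosen Ccl5 and Il33, and Cxcl1, were higher in shSix4 cells, and Ccl24 and Cxcl12 were lower. No gene at all passed for the difference of the MyoD response (0.00%), where 249 of 12300 had an unadjusted p under 0.05. With Ccl24 at its lower bound, the median difference over the 9 members was 0.32 with MyoD for shLuc and 0.42 for shSix4, beside -0.14 and -0.058 over all genes. Over the 7 members other than Ccl5 and Il33 the shSix4 median was 0.11. Between hairpins with empty vector it was 0.26 over the 8 members measured there (Ccl24 was not above background), beside -0.025.

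Receptors for these signals were present in part. The Cxcl12 receptor Cxcr4 was below background on all 6 arrays with empty vector and above it on all 6 with MyoD, at -0.98, -1.54 and -1.47 for shLuc and -1.13, -2.81 and -2.25 for shSix4. It was at least 24.7-fold higher with MyoD in shLuc cells (limma adjusted p = 8.62e-06) and at least 9.97-fold higher in shSix4 cells (adjusted p = 0.000214). Cxcr4, like Ccrl2 below, passed the filter only through MyoD arrays. The scavenging Cxcl12 receptor Ackr3 was above background on all 12 arrays (lowest 2.20, highest 3.36). Ccrl2, an atypical receptor, rose on the shSix4 MyoD arrays (at least 1.42-fold, adjusted p = 0.0297). Of the Ccl2 and Cxcl1 receptors, Ccr2 and Cxcr2 were above background on no array, while Ccr3, a Ccl24 receptor, was tested and not called. The Il33 receptor Il1rl1 and the Il6 receptor chains Il6ra and Il6st were above background on all 12 arrays. Among 8 chemokine receptors tested, MyoD raised 1 in the shLuc line and 2 in the shSix4 line, and lowered 0. Among 19 cytokine receptors tested, of the IL-6, IL-1, TNF, interferon and IL-17 families, 1 rose in each line. Over all genes 6.28% and 2.89% were called. With the slide as a block these counts were 3 higher and 1 lower in shLuc cells for the chemokine receptors and 2 higher and 4 lower for the cytokine receptors, where 25.6% of all genes were called. The cytokine receptor that rose was Lifr, the receptor for leukemia inhibitory factor, by 1.09 ± 0.19 in shLuc (adjusted p = 0.00530) and 0.94 ± 0.19 in shSix4 cells (adjusted p = 0.0216).

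Of the other CC chemokines, 6 of 16 on the array were tested and 1 passed, Ccl17, a T cell attractant, which rose with MyoD in shSix4 cells (-3.18, -3.48 and -3.34 against -4.34, -4.14 and -3.96, difference 0.81 ± 0.19, limma adjusted p = 0.0433). Of the other CXC, XC and CX3C chemokines 7 of 12 were tested. Among the genes named next, Cxcl13 and Il12a passed the filter only through MyoD arrays, and Ppbp only through empty-vector arrays, where each was higher. Cxcl13, the B cell attractant, rose with MyoD in both lines, from -7.83, -7.01 and -5.12 to -1.74, -2.74 and -2.33 in shLuc cells (1 of 3 empty-vector arrays above background, 4.38 ± 0.55, adjusted p = 0.000441) and from below background to -2.33, -2.17 and -2.22 in shSix4 cells (at least 8.82-fold, adjusted p = 0.000180). Ppbp, a platelet chemokine, fell with MyoD in shLuc cells by 1.1 ± 0.28 on the log2 scale (adjusted p = 0.0391). In shSix4 cells Ppbp differed by -1.05 ± 0.28 (adjusted p = 0.0836, or 0.0299 in the blocked fit). Among 19 other interleukins and cytokines tested, Il12a, a subunit of IL-12, rose in both lines (1.97 ± 0.32 in shLuc, where 1 of 3 empty-vector arrays was above background, adjusted p = 0.00279; at least 3.92-fold in shSix4, adjusted p = 0.000750), and none fell. Over all genes MyoD called 6.28% in shLuc and 2.89% in shSix4 cells. None of these 3 lists had a call between the hairpins with empty vector, against 0.0569% of all genes. With the slide as a block the other interleukins and cytokines had 3 higher and 2 lower of 19 with MyoD in the shLuc line, and 2 higher in the other. That fit called 25.6% and 8.30% of all genes.

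**Figure D4:**
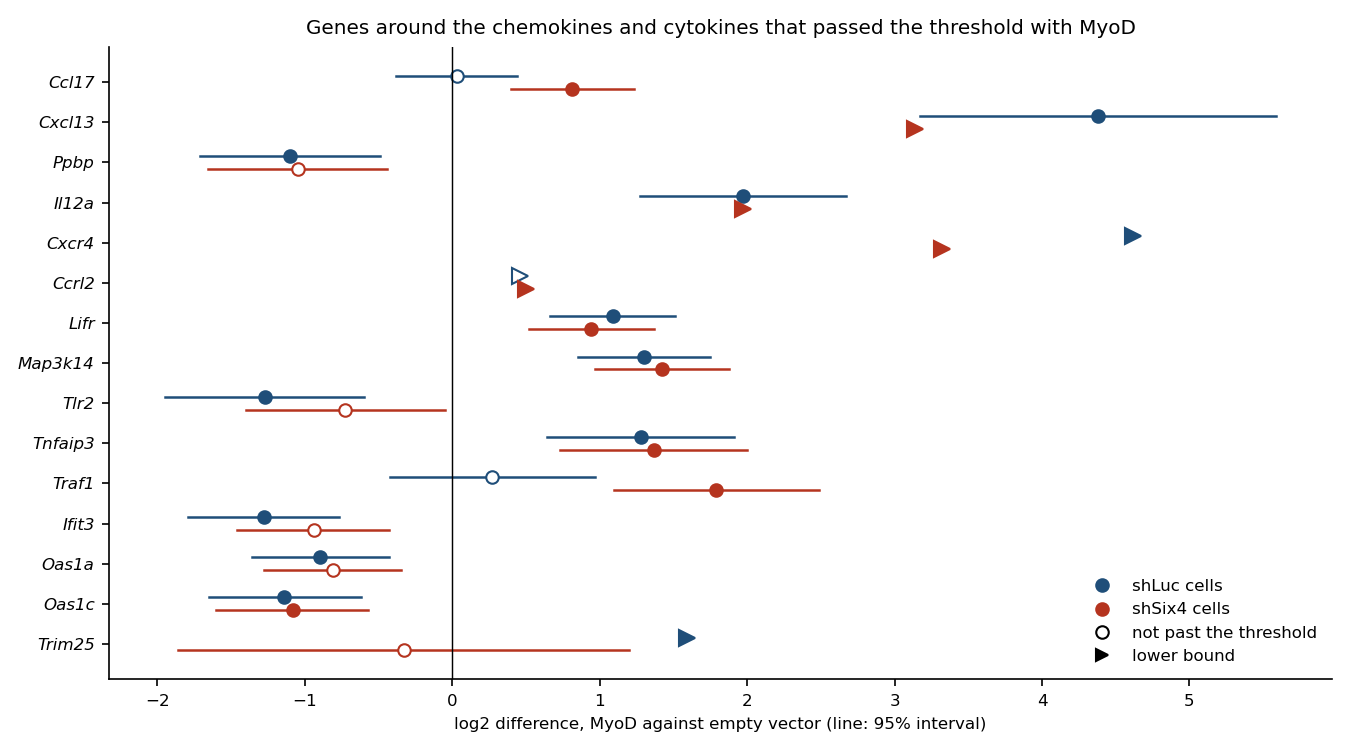
Log2 difference with MyoD against empty vector in shLuc (blue) and shSix4 (red) cells for listed chemokines, cytokines, receptors, NF-kB pathway genes and interferon-induced genes that passed the threshold in at least 1 line, with 95% intervals, or a triangle at the lower bound where the empty-vector group was below background on all arrays. Filled marks passed the threshold. Cxcr4 has the highest bounds of both lines, at 4.62 and 3.32, and Ppbp, Tlr2, Ifit3, Oas1a and Oas1c lie below 0 in both lines.

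Among 32 tested genes of the NF-kB pathway and its feedback, MyoD raised 2 and lowered 1 in the shLuc line, and raised 3 and lowered 0 in the shSix4 line, beside 6.28% and 2.89% of all genes called. Map3k14, the kinase NIK of the non-canonical arm, rose by 1.30 ± 0.20 in shLuc (limma adjusted p = 0.00233) and 1.42 ± 0.20 in shSix4 cells (0.00196). Tnfaip3, the feedback inhibitor A20, rose by 1.28 ± 0.29 (0.0228) and 1.37 ± 0.29 (0.0250). Traf1, an adaptor and NF-kB target, rose in shSix4 cells, from -2.31, -3.09 and -2.41 to -0.12, -1.36 and -0.95 (1.79 ± 0.32, adjusted p = 0.00795), with 0.27 ± 0.32 in shLuc cells (adjusted p = 0.714). Its gap between the responses was 1.52 on the log2 scale and was not called. Tlr2, a receptor for bacterial lipoproteins, fell with MyoD in shLuc cells by 1.27 ± 0.31 (adjusted p = 0.0314). In shSix4 cells Tlr2 differed by -0.73 ± 0.31 (adjusted p = 0.437, or 0.00846 in the blocked fit). The blocked fit gave the list 4 higher and 8 lower for shLuc, with 5 higher and 3 lower for shSix4. Over all genes that fit had 1217 higher and 1936 lower for shLuc, and 701 and 320 for shSix4.

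Interferon-induced genes held 1 call upwards and 3 downwards with MyoD among 26 tested in the shLuc line, against 0 and 1 in the shSix4 line. Of all 12300 genes, 580 were called upwards and 192 downwards in the shLuc line, and 343 and 13 in the shSix4 line. Ifit3 fell by 1.28 ± 0.23 (limma adjusted p = 0.00622), Oas1a by 0.90 ± 0.21 (0.0281) and Oas1c by 1.14 ± 0.23 (0.0132) in shLuc cells, and Oas1c by 1.08 ± 0.23 (0.0286) in shSix4 cells. Oas1a passed the filter only through the shLuc empty-vector arrays, where it was highest. The median difference of the 26 was -0.76 for shLuc and -0.54 for shSix4, beside -0.14 and -0.058 over all genes. Trim25, a ubiquitin ligase of antiviral sensing, was the gene that rose: it was above background on all 3 shLuc arrays with MyoD and on none with empty vector (at least 3.01-fold, adjusted p = 0.00758), and only that group took it past the filter. In shSix4 cells it was above background on 1 of 3 arrays with either vector. In the blocked fit 14 of the 26 interferon-induced genes were lower with MyoD in the shLuc line and 4 in the shSix4 line. That fit put 1936 and 320 of all 12300 genes lower.

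Cell type markers were set beside these values. Of the 6 leukocyte markers tested, Coro1a fell with MyoD in shLuc cells by 0.75 ± 0.17 (limma adjusted p = 0.0247) and the other 5 were not called. Of 9 endothelial markers, Pecam1, Cdh5, Kdr and Tie1 were above background on no array, while Eng was on 12 arrays and Tek on 11. Of the 3 tested, Eng and Tek were not called, and Vwf rose with MyoD in shLuc cells by 1.50 ± 0.36 (adjusted p = 0.0298) and in shSix4 cells (at least 1.30-fold, adjusted p = 0.00827). Vwf passed the filter only through the shLuc MyoD arrays. Over all genes MyoD called 6.28% in shLuc and 2.89% in shSix4 cells.

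The genes whose levels followed Ccl5 most closely over the 12 arrays were Cx3cl1 (Pearson r = 0.96), the chemokine fractalkine, Vegfc (0.90), a growth factor for lymphatic vessels, and Ubd (0.90), a ubiquitin-like modifier induced by cytokines. Cx3cl1 stood at 3.46, 3.60 and 3.45 on the shSix4 MyoD arrays and between 2.68 and 3.10 on the other 9 arrays, so the same group was the highest without overlap. For Il33 they were Ccl17 (0.93), Arhgap22 (0.92), a regulator of small GTPases, and Dmp1 (0.91), a matrix protein of bone. Dmp1 stood at -1.36, -1.59 and -0.67 on the shSix4 MyoD arrays, at -2.57, -2.67 and -2.26 on the shLuc MyoD arrays and between -4.89 and -3.73 with empty vector, the same order of vectors as Il33. These genes were ranked among all 12300 on arrays that share slides and groups, and the correlations carry no test.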

How the data were processed

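RNA of 12 samples was labelled with Cy3 and hybridised to 1-colour mouse arrays, 1 array per sample. The deposited scanner files hold spot intensity on a linear scale, made by the authors with Agilent Feature Extraction (version 11.5.1.1 per the file headers, 10.5.1.1 per the submitters' processing notes) and background-corrected within each array. A further deposited table holds the authors' log2 values for 3891 probes, 2 of them members' genes, and served as an alternative. Its values followed log2 scanner signal at r of 0.9993 or more, and its column medians lie between 8.68 and 8.73. Its name carries the word quantile, and the sources used here do not otherwise give its normalization.

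From 43379 non-control spots per array, log2 processed signal minus the array's 75th percentile was taken, outlier-marked spots were dropped, spots of a probe were averaged, and probes had to be well above background on every one of the 3 arrays in some group (24000 of 41174 passed). RefSeq accessions named 24844 probes (GRCm38.p6 table, names only), and the brightest kept probe stood for its gene. limma 3.58.1 in R 4.3.3 fitted 4 group means to the 12 arrays together (8 residual and 2.85 prior degrees of freedom), checked on simulated data. Adjusted p-values are Benjamini-Hochberg values across 12300 genes, and the threshold is 0.05. Errors of levels are SD and those of differences SE, and the number of arrays limits the precision.

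Members and lists were chosen with earlier results of these data known. Named genes are the members, list genes past the threshold in a comparison other than shSix4 against shLuc with MyoD (or else the 2 with the largest statistic), Six4, Myod1 and the 3 genes most like Ccl5 and Il33. Replicate numbers pair the arrays: each number is 1 slide, and deviations of same-numbered arrays from their group means correlated at 0.28 to 0.82 in 18 of 18 pairs. The alternatives were the slide as a block, only the groups compared, leaving out each array, quantile normalization, normexp (offset 50, on median signals), 2 other filters, outlier-marked spots kept, the mean of a gene's probes and the authors' table. Chosen after seeing the data were a percentile over averaged probes and leaving out slide 1. The samples' description field contradicts their other labels and was not used. Some results of listed genes are not reported here.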

Additional observations from a re-analysis of the deposited data

Results flagged for a closer look

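Signal appeared in probes of the named genes that the comparisons do not use, above the level in the cells with empty vector. The second Ccl24 probe was well above background on 2 arrays, both of shLuc cells with MyoD, and on 0 arrays with empty vector. The Cxcl10 probe was well above background on 2 arrays, both of shSix4 cells with MyoD, and on 0 arrays with empty vector. Neither probe was above background on all 3 arrays of any group, so neither was tested.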

How the results depend on the processing

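The choice of test and scaling moved counts more than directions. Over 985 values of single members under the alternatives, 926 were counted as unchanged, while 13 gained and 7 lost a call. The other 39 changed sign without a call in either fit or, between the hairpins with MyoD, moved by more than the replicate spread. An unchanged value kept its direction and its side of the threshold. Between the hairpins with MyoD it only had to move by less than the replicate spread, and gained or lost calls were not counted. There Il33 passed the threshold in only 12 of 21 alternatives, and Il6 ran from -1.06 to 0.41. Member counts given below for the hairpins with MyoD cover Ccl5 and Il33, which were chosen on that contrast, and are no test. With the slide as a replicate block 4 members were called for MyoD in shLuc and 4 between the hairpins with MyoD, and over all genes the counts were 3153 (772 in the main design) and 1021 (356) for MyoD in shLuc and shSix4, and 533 (28) and 79 (7) between the hairpins with MyoD and with empty vector. The block left 0 calls for the difference of response. It turned the split for MyoD in shLuc from 580 higher and 192 lower to 1217 and 1936. Fits on only the groups compared called 2 members for MyoD in shLuc, 227 genes for MyoD in shSix4, and 0 members and 0 genes between the hairpins with MyoD and 0 genes with empty vector. Normexp background correction called 0 members in any comparison, 86 and 49 genes for MyoD in shLuc and shSix4, and 0 genes between the hairpins with either vector. Requiring all 12 arrays above background, which removes Ccl24, Il6 and Il33 from the test, called 0 members and 457 genes for MyoD in shLuc, 1 member and 154 genes for MyoD in shSix4, 1 member and 6 genes between the hairpins with MyoD, and 4 genes with empty vector. With no filter there were 1 member and 2 genes between the hairpins with MyoD and 2 genes with empty vector. The mean of a gene's probes gave 50 genes between the hairpins with MyoD, and quantile normalization 4 with empty vector. Without slide 1, an alternative chosen after seeing the data, 3 members were called for MyoD in shLuc, and 271 genes, and with empty vector 1 member (Ccl7) and 280 genes, were called between the hairpins. Leaving out 1 array at a time gave 1 to 3 members and 490 to 876 genes for MyoD in shLuc, 2 to 4 members for MyoD in shSix4, 1 to 2 members and 1 to 45 genes between the hairpins with MyoD, and 1 to 9 genes with empty vector. Why these counts moved was not tested beyond the number of genes or arrays that each setting removes. The authors' table held 2 members, Ccl2 and Il6, and gave counts over other genes that are not comparable. Signal close to background limits Ccl24, Cxcl10, Il6 and Il33 with empty vector.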

Other observations

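After group means were removed, several of the secreted signals still moved together over the 12 arrays, and Ccl2, Ccl7 and Il6 were highest on slide 1 in every group. Ccl24 correlated at 0.88 with Ccl2 and at 0.85 with Ccl7, and Il6 at 0.78 with Ccl2 and 0.73 with Ccl7, while Cxcl1 correlated at -0.82 with Il6. The Ccl24 values include the empty-vector arrays, on which it was not above background. Ccl5 and Il33 stood outside this group, at 0.29 and 0.21 with Ccl2. These correlations describe arrays that share slides and were given no test.

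The Il33 receptor Il1rl1 was higher on slide 1 than on the other slides in each group, at 1.35 against 0.62 and 0.092 for the shLuc empty-vector arrays and at 2.87 against 0.48 and -0.11 for the shSix4 MyoD arrays. The interleukin-6 receptor chain Il6ra had 1 array apart from the rest, shSix4 replicate 2 with empty vector at -0.27, where the other 11 arrays lay at -2.93 or lower.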
